A study of Arabidopsis thaliana with 24 samples.

Results

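The genes described here are the nitrilases and the camalexin synthesis genes of *Arabidopsis thaliana*, 9 of the 37813 genes in the count table, taken by identifier. They are *NIT1* (AT3G44310), *NIT2* (AT3G44300), *NIT3* (AT3G44320), *NIT4* (AT5G22300), *CYP79B2* (AT4G39950), *CYP79B3* (AT2G22330), *CYP71A12* (AT2G30750), *CYP71A13* (AT2G30770) and *PAD3* (AT3G26830). All 9 passed the filter on low counts (5 reads or more in 6 or more libraries) and so belong to the 20094 protein-coding genes that were tested.

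The study asked how the phototropins, blue-light receptor kinases, act in the transcriptome of leaves before and after UV-C radiation. RNA-Seq libraries were made from whole rosettes of *phot1*, *phot2* and *phot1phot2* mutants and of the wild type, either 30 min after UV-C radiation at 100 mJ per cm2 or non-treated. Each of the 8 groups held 3 biological replicates, and each replicate was a pool of at least 4 rosettes. By the labels all plants were 4 weeks old, while the methods of the study give a younger age for the RNA samples. All of them, the wild type included, carried the *gl1* mutation in the Col-0 accession, which keeps leaves free of trichomes.

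Indole metabolism in Arabidopsis starts from tryptophan. The cytochromes P450 CYP79B2 and CYP79B3 turn tryptophan into indole-3-acetaldoxime, from which the defence compound camalexin, the indole glucosinolates and part of the auxin pool can be made. CYP71A13 and its neighbour CYP71A12 dehydrate the oxime to indole-3-acetonitrile, and PAD3 (CYP71B15) carries out the last steps to camalexin, a phytoalexin that leaves make after infection or abiotic stress. NIT1, NIT2 and NIT3 hydrolyse nitriles, among them indole-3-acetonitrile, which gives indole-3-acetic acid (auxin). NIT4 is the more distant member of the family and acts on beta-cyanoalanine, a product of cyanide detoxification.

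The 12 UV-C libraries held 20897905 to 28723145 assigned reads (median 24570600) and the 12 non-treated libraries 33200727 to 41902444 (median 38155600), so the same level rests on fewer reads after UV-C. The tested genes took 87.9% to 92.4% of these reads after UV-C and 99.2% to 99.4% without. By the RefSeq annotation, genes typed as misc_RNA took 3.45% to 6.09% after UV-C and 0.0741% to 0.161% without, and rRNA genes 1.77% to 3.19% and 0.0082% to 0.0322%. Levels are given as CPM, read counts of the tested genes scaled to their sum with TMM factors, or as CPM per kb of exon where genes are compared with each other. The mutant labels were checked against the mutated genes. *PHOT1* was at 116 to 126 CPM in non-treated *phot1* and 110 to 143 CPM in *phot1phot2*, against 294 to 329 CPM in the wild type, and *PHOT2* was at 248 to 273 CPM in non-treated *phot2* and 254 to 282 CPM in *phot1phot2*, against 425 to 435 CPM in the wild type, although *PHOT2* shares 2760 of its 7121 exon bases with a gene on the other strand. After UV-C *PHOT1* was at 120 to 132 CPM in *phot1* and 163 to 175 CPM in *phot1phot2*, against 218 to 258 CPM in the wild type (log2 fold change -0.94 and -0.52, against -1.34 and -1.298 without UV-C). *PHOT2* was then at 224 to 243 CPM in *phot2* and 220 to 253 CPM in *phot1phot2*, against 340 to 375 CPM in the wild type (-0.61 in both, against -0.71 and -0.70 without UV-C). The summed level of the 4 leaf markers was 54700 to 78000 CPM per library after UV-C and 41900 to 49700 CPM without. Of these, *LHCB1.3* was higher after UV-C, with group means of 40100 to 53200 CPM against 19000 to 23700 CPM, and *RBCS1A*, *CA1* and *GLDP1* had lower group means in every genotype. The 4 flower markers together were at 1.09 to 6.25 CPM over all libraries. Of the 5 root markers *PYK10*, also known from leaves, was at 260 to 546 CPM, *TIP2;3* at 0.725 CPM or less, *CASP1* and *COBL9* at 0.25 CPM or less, and *RHD6* at 0 in all libraries. The part of these shifts in the results was not tested. P-values rest on the spread between the pools within groups. This spread was estimated over all 8 groups together and drawn toward that of other genes, so libraries outside a comparison bear on its p-values. In bulk rosettes, fewer cells of a type and less RNA per cell cannot be told apart.

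*NIT1*, *NIT2* and *NIT3* lie side by side on chromosome 3 (TAIR10.1, plus strand), at chr3:15986624-15989505, chr3:15983199-15985535 and chr3:15993259-15995811, with 1088 bases between *NIT2* and *NIT1* and 3753 bases between *NIT1* and *NIT3*. The cluster is 0.82 to 0.83 Mb from *PHOT1*, while *NIT4* is on chromosome 5 (chr5:7379187-7382025), 16.14 Mb from *PHOT2*. The coding sequences of *NIT1* and *NIT2* are identical at 91.4% of aligned bases, *NIT1* and *NIT3* at 87.6%, *NIT2* and *NIT3* at 86.1%, and *NIT4* matches the other members at 71.9% to 73.3%. The stretch below is the one exonic run longer than a 76-base read that is the same in *NIT1* and *NIT2*, shown because the counting left out reads with more than one place in the genome. It is at chr3:15988319-15988409 in *NIT1* and chr3:15984644-15984734 in *NIT2*.
NIT1: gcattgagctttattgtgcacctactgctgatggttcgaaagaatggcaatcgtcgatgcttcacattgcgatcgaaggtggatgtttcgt
NIT2: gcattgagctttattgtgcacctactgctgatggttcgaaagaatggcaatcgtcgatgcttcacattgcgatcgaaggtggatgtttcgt
In these 91 bases 16 of the 2096 exonic windows of read length in *NIT1* (0.763%) and 16 of 1160 in *NIT2* (1.38%) occur again in the genome. No window of the other 7 genes was repeated anywhere in the genome.

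The nitrilases were expressed at very different levels. In non-treated wild type *NIT1* averaged 274 CPM per kb, *NIT2* 11.5, *NIT3* 3.04 and *NIT4* 2.20 CPM per kb, and *NIT1* made up 94.2% ± 0.76 (SD, n = 3) of the summed nitrilase level per kb. That share was lowest in UV-C-treated *phot2*, at 80.1% ± 4.6 (SD, n = 3), where *NIT2* reached 18.5% ± 4.5. The order *NIT1*, *NIT2*, then *NIT3* and *NIT4* held in all 8 groups, and *NIT3* and *NIT4* had group means of 2.20 to 3.47 CPM per kb.

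*NIT2* was the nitrilase that differed most between groups. In non-treated plants it was at 34.8, 42.8 and 67 CPM in *phot1*, at 44.9, 47.1 and 73.4 CPM in *phot2* and at 54.1, 33.2 and 46 CPM in *phot1phot2*, against 19, 20.5 and 13.6 CPM in the wild type. Every mutant library was above every wild-type library. On the log2 scale *phot1* differed from the wild type by 1.44 ± 0.38, *phot2* by 1.63 ± 0.37 and *phot1phot2* by 1.32 ± 0.37 (± SE). None passed the limits used for a call, which are a log2 fold change beyond 1 and an adjusted p under 0.01 in the quasi-likelihood test of edgeR, with p-values adjusted by the Benjamini-Hochberg procedure over all 20094 genes. The edgeR adjusted p-values were 0.0595, 0.0113 and 0.0203 for the mutants in the same order. With edgeR's likelihood ratio test and robust dispersions all 3 were called (adjusted p = 0.000399 for *phot1*, 3.72e-06 for *phot2*, 0.000178 for *phot1phot2*).

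After UV-C *NIT2* was at 191, 101 and 114 CPM in *phot2*, 93, 131 and 34 CPM in *phot1* and 89, 72.2 and 88.6 CPM in *phot1phot2*, against 46, 47.5 and 22.1 CPM in the wild type. All libraries of *phot2* and *phot1phot2* were above those of the wild type, whereas replicate 3 of *phot1* overlapped with them. *NIT2* was called higher in *phot2* than in the wild type (log2 fold change 1.81 ± 0.37, edgeR adjusted p = 0.00187). The call was lost without replicate 3 of UV-C-treated wild type (1.53, edgeR adjusted p = 0.0159) or replicate 1 of UV-C-treated *phot2* (1.48, edgeR adjusted p = 0.0153). The summed level of the flower markers (*AP1*, *AP3*, *PI* and *AG*) was 4.02 to 6.25 CPM in UV-C-treated and 3.01 to 4.84 CPM in non-treated *phot2*, against 1.83 to 2.98 CPM and 2.01 to 2.98 CPM in the wild type, and each of the 4 had a higher group mean in *phot2*. The root markers summed to 364 to 478 CPM in UV-C-treated *phot2*, against 308 to 349 CPM in the wild type, nearly all of it *PYK10*. This shift was not particular to *phot2*, with 369 to 450 CPM in UV-C-treated *phot1* and 446 to 547 CPM in *phot1phot2*. In non-treated plants the root sums of *phot2* were not raised, at 261 to 326 CPM against 325 to 396 CPM in the wild type. Those of non-treated *phot1* and *phot1phot2* were 379 to 426 CPM and 413 to 470 CPM. The flower and root marker sums are given beside *NIT2* as values only. The part of both in this result was not tested. For *phot1* and *phot1phot2* the log2 fold changes were 1.15 ± 0.37 and 1.11 ± 0.37 (edgeR adjusted p = 0.113 and 0.023).

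The wild-type *NIT2* level was 38.5 ± 14.2 CPM after UV-C and 17.7 ± 3.66 CPM in non-treated plants (SD, n = 3 each), a log2 fold change of 1.12 ± 0.38 that was not called (edgeR adjusted p = 0.0186). It was called without replicate 3 of UV-C-treated wild type (1.40, edgeR adjusted p = 0.0069). In *phot2* the UV-C libraries averaged 135 ± 48.9 CPM and the non-treated ones 55.1 ± 15.9 CPM, and *NIT2* rose (1.297 ± 0.359, edgeR adjusted p = 0.00452). Without replicate 1 of UV-C-treated *phot2* the call was lost (0.97, edgeR adjusted p = 0.0411), as it was without replicate 1 (1.17, 0.0249) or replicate 2 (1.20, 0.0234) of the non-treated group. The effects in *phot1* (0.84 ± 0.36, edgeR adjusted p = 0.06) and *phot1phot2* (0.91 ± 0.36, edgeR adjusted p = 0.0384) were not called, and without replicate 3 of UV-C-treated *phot1* the first became 1.22 (edgeR adjusted p = 0.00366).

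*NIT1*, the abundant member, differed less between groups and had little spread. It was at 775, 748 and 739 CPM in non-treated *phot1*, 805, 805 and 816 CPM in *phot2* and 867, 936 and 820 CPM in *phot1phot2*, against 673, 687 and 670 CPM in the wild type. The groups of each mutant and the wild type did not overlap. Its log2 fold change in *phot1phot2* was 0.37 ± 0.08 (edgeR adjusted p = 0.00261), a difference of 1.29-fold that passes the limit on the adjusted p and not that on the fold change. In *phot1* and *phot2* it was 0.16 ± 0.08 and 0.26 ± 0.08 (edgeR adjusted p = 0.43 and 0.0546). Of all tested genes 6.35% had an edgeR adjusted p under 0.01 in non-treated *phot1phot2* against the wild type.

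After UV-C *NIT1* was at 1110, 1020 and 1040 CPM in *phot1phot2*, 979, 912 and 882 CPM in *phot2* and 934, 890 and 690 CPM in *phot1*, against 676, 725 and 748 CPM in the wild type. Replicate 3 of *phot1* overlapped with the wild type, and the other mutant groups did not. The double mutant was higher than the wild type by 0.56 ± 0.08 (log2, edgeR adjusted p = 9.89e-06) and than *phot1* by 0.33 ± 0.08 (edgeR adjusted p = 0.00436), and *phot2* was higher than the wild type by 0.37 ± 0.08 (edgeR adjusted p = 0.00209). In *phot1* the value was 0.23 ± 0.08 (edgeR adjusted p = 0.137). The double mutant and *phot2* were not told apart (0.19 ± 0.08, edgeR adjusted p = 0.0741). The UV-C effect on *NIT1* was 0.27 ± 0.08 in *phot1phot2* (edgeR adjusted p = 0.00488) and 0.08 ± 0.08 in the wild type (edgeR adjusted p = 0.39). An edgeR adjusted p under 0.01 was found for 24.2% of all tested genes in UV-C-treated *phot1phot2* and 8.28% in *phot2* against the wild type. The share was 9.35% for *phot1phot2* against *phot1* after UV-C and 43% for the UV-C effect in *phot1phot2*.

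The remaining nitrilases, *NIT3* and *NIT4*, were low. *NIT3* had group means of 4.35 to 5.01 CPM, from 73 to 243 reads a library, and no comparison between mutants, wild type or treatments was called. *NIT4* was at 10.1, 7.26 and 8.07 CPM in UV-C-treated *phot2*, against 6.13, 6.11 and 4.74 CPM in UV-C-treated wild type (log2 fold change 0.58 ± 0.15, edgeR adjusted p = 0.0106). In non-treated plants *NIT4* was at 5.76 to 7.27 CPM over the 9 mutant libraries, above the 5.31 to 5.54 CPM of the wild type, and the log2 fold changes of 0.26 to 0.32 were not called.

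**Figure D1:**
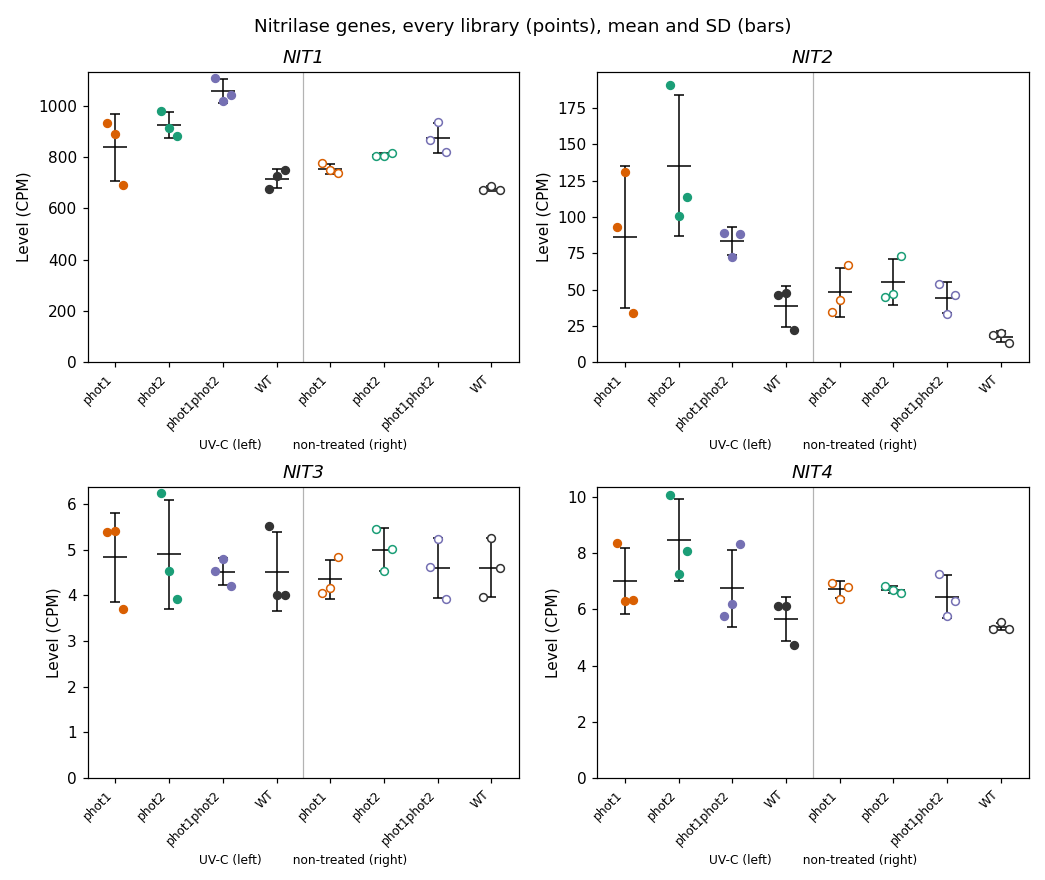
Level of *NIT1*, *NIT2*, *NIT3* and *NIT4* in CPM on the vertical axes in each of the 24 libraries, with UV-C-treated groups (filled points) left of non-treated groups (open points) and the mutants left of the wild type; bars give mean and SD (n = 3). *NIT2* in the 9 non-treated mutant libraries sits at 33.2 to 73.4 CPM, above the 13.6 to 20.5 CPM of the wild type, and *NIT1* is highest in UV-C-treated *phot1phot2*.

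The genes for the first step, *CYP79B2* (chr4:18525042-18527602, plus strand) and *CYP79B3* (chr2:9488413-9491404, plus strand), lie on different chromosomes and are identical at 80.7% of aligned coding bases. As both genes were higher after UV-C, the 250 bases before their annotated starts are shown (TAIR10.1, chr4:18524792-18525041 and chr2:9488163-9488412), with the longest run shared by the promoter windows of the pair in capitals. The windows searched ran from 250 bases before to 50 bases after the start.
CYP79B2: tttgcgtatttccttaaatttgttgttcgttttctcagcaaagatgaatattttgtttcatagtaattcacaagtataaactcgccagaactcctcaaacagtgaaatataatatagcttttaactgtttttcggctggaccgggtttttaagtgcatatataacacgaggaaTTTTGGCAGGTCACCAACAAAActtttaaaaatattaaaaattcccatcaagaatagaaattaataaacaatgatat
CYP79B3: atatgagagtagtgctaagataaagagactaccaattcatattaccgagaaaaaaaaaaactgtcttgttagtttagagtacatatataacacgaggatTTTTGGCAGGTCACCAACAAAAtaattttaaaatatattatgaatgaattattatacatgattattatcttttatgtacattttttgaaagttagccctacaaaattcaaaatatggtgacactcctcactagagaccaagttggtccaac
The run is 22 bases long and starts 77 bases before the start of *CYP79B2* and 151 bases before that of *CYP79B3*. Of 27435 windows of the same length, 2 hold it, those of *CYP79B2* and *CYP79B3*, which describes the letters and not a function.

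*CYP79B2* rose after UV-C in all 4 genotypes. It was at 63.5, 64.6 and 81.4 CPM in UV-C-treated *phot1*, against 35.6, 31.8 and 35.3 CPM in non-treated *phot1*, and at 96.8, 88.6 and 79.2 CPM in UV-C-treated *phot2*, against 35.7, 30.2 and 49.4 CPM in non-treated *phot2*. In *phot1phot2* it was at 63.8, 71.1 and 65.2 CPM after UV-C, against 28.4, 20.4 and 27.4 CPM without, and in the wild type at 102, 64.3 and 98.3 CPM, against 40.6, 38.8 and 46.5 CPM. The UV-C libraries were all above the non-treated ones in each genotype, which also held for 27% to 30% of all tested genes. The log2 fold changes were 1.03 ± 0.17 in *phot1* (edgeR adjusted p = 3.07e-05), 1.20 ± 0.17 in *phot2* (3.48e-06), 1.39 ± 0.17 in *phot1phot2* (5.05e-07) and 1.07 ± 0.17 in the wild type (1.46e-05). In *phot1* and the wild type the change was close to the fold limit: it fell under it without replicate 1 (0.95) or 3 (0.99) of UV-C-treated wild type, without replicate 3 of UV-C-treated *phot1* (0.90) and without replicate 2 of non-treated *phot1* (0.98), with edgeR adjusted p-values of 0.00039 or less. With no TMM factor it was 0.90 in *phot1* and 0.96 in the wild type.

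*CYP79B3* was higher after UV-C as well, with less change. Its mean was 121 ± 6.51 CPM after UV-C and 79.8 ± 8.73 CPM without in *phot1*, 125 ± 13.9 and 76 ± 6.02 CPM in *phot2*, 146 ± 16.5 and 67.7 ± 9.32 CPM in *phot1phot2*, and 160 ± 36 and 88.3 ± 8.95 CPM in the wild type (SD, n = 3 each). The log2 fold change passed both limits in *phot1phot2* (1.11 ± 0.14, edgeR adjusted p = 5.67e-07) and only the limit on the adjusted p in *phot1* (0.60 ± 0.14, 0.000947), *phot2* (0.72 ± 0.14, 0.000137) and the wild type (0.86 ± 0.14, 1.84e-05). Without replicate 2 of UV-C-treated wild type, the library with the lowest *CYP79B3* level of that group, the last value was 1.03 and the gene was called. The value of *phot1phot2* was close to the fold limit, at 1.00 without replicate 2 of the non-treated group, and the call was lost with no TMM factor (0.87, edgeR adjusted p = 1.84e-05).

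Per kb, *CYP79B3* was the higher of the pair in every library, by 1.28 to 2.68 times. The ratio of *CYP79B3* to *CYP79B2* was lower after UV-C than without UV-C in all libraries of all 4 genotypes: 1.48 to 1.84 against 2.09 to 2.32 in *phot1*, 1.28 to 1.40 against 1.48 to 2.21 in *phot2*, 1.90 to 2.18 against 2.47 to 2.68 in *phot1phot2*, and 1.70 to 1.76 against 1.86 to 2.25 in the wild type. This ratio was chosen after the values were seen and is given without a test.

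Against the wild type, non-treated *phot1phot2* had less *CYP79B2*, with 28.4, 20.4 and 27.4 CPM against 40.6, 38.8 and 46.5 CPM. The log2 fold change of -0.72 ± 0.17 passed the limit on the adjusted p (edgeR, 0.00577) and not that on the fold change. The limit on the adjusted p was passed by 6.35% of all tested genes in non-treated *phot1phot2*. *CYP79B3* was at 57.2 to 75.1 CPM there, against 78.3 to 95.6 CPM in the wild type (-0.38 ± 0.14, edgeR adjusted p = 0.0575). After UV-C neither gene passed a limit in any mutant against the wild type, and *CYP79B2* in *phot2* was level with it (88.2 ± 8.78 and 88.2 ± 20.8 CPM, SD, n = 3 each).

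*CYP71A12* (chr2:13099486-13101371) and *CYP71A13* (chr2:13109909-13111988) are neighbours on the minus strand of chromosome 2, 8537 bases apart, and are identical at 90.4% of aligned coding bases. Their annotated models start at the first codon. The 250 bases before it are given 5′ to 3′ on the minus strand (TAIR10.1, chr2:13101372-13101621 and chr2:13111989-13112238), because WRKY33, the factor known to activate camalexin genes through W-boxes, rose in every genotype after UV-C. The capitals mark the W-box core TTGAC on either strand.
CYP71A12: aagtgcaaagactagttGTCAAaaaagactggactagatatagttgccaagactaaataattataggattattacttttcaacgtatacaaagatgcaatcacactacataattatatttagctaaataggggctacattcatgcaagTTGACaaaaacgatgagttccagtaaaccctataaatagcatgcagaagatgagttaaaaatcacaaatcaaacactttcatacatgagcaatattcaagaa
CYP71A13: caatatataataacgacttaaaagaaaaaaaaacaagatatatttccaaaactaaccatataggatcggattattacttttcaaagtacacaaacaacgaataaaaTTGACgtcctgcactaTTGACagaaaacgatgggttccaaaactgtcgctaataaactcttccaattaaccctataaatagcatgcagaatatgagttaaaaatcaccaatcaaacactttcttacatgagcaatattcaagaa
The core was found 2 times in each, at positions -233 and -102 of *CYP71A12* and -144 and -128 of *CYP71A13*, counted from the first base of the start codon. It was also found 2 times in the window of *NIT4* and was not in those of *PAD3*, *NIT1*, *NIT2*, *NIT3*, *CYP79B2* or *CYP79B3*. Of 27434 windows of the same length, 50.5% hold it, so a match by itself says little. The G-box CACGTG, searched likewise, was found only in *NIT3* (2 times), and 7.68% of all windows hold it.

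The late camalexin genes were low and varied much between replicates of a group. *CYP71A12* was at 12.9, 8.81 and 11 CPM in UV-C-treated *phot2*, 2.93, 5.31 and 0.845 CPM in *phot1* and 2.27, 2.5 and 3.38 CPM in *phot1phot2*, against 3.28, 1.87 and 1.16 CPM in the wild type. The 3 *phot2* libraries were above all other UV-C libraries. Against the wild type alone, all *phot2* libraries were higher for 15.2% of all tested genes, and the share against all UV-C groups was not counted. The log2 fold change of *phot2* over the wild type, 2.35 ± 0.64, had an edgeR adjusted p of 0.0143 and was not called. It was called with the likelihood ratio test (2.37, adjusted p = 5.54e-05), with DESeq2 (2.37, adjusted p = 0.00912) and with edgeR on the 2 groups alone (2.35, adjusted p = 0.000217). After UV-C the difference of *phot1phot2* from *phot2* was -1.995 ± 0.619 (log2, edgeR adjusted p = 0.023) and that of *phot2* from *phot1* 1.85 ± 0.61 (edgeR adjusted p = 0.0592).

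In non-treated plants *CYP71A12* was at 3.6, 1.38 and 8.77 CPM in *phot2*, 1.5, 2.25 and 2.23 CPM in *phot1* and 4.43, 1.04 and 1.06 CPM in *phot1phot2*, against 0.996, 2.76 and 0.651 CPM in the wild type. Replicate 3 of *phot2* and replicate 1 of *phot1phot2* stood well above the other replicates of their groups, and each mutant overlapped with the wild type. UV-C against non-treated *phot2* gave 1.26 ± 0.56 (edgeR adjusted p = 0.0659), and without replicate 3 of non-treated *phot2* it was called (2.12, edgeR adjusted p = 0.00664), as it was with the likelihood ratio test (1.58, adjusted p = 0.0068).

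*PAD3* (chr3:9887917-9889791, plus strand) was at 6.56, 4.68 and 5.16 CPM in UV-C-treated *phot2*, 1.89, 2.76 and 1.08 CPM in *phot1* and 2.27, 1.9 and 3.73 CPM in *phot1phot2*, against 1.03, 2.29 and 0.386 CPM in the wild type. Here too the *phot2* libraries were the highest 3 of the UV-C libraries, and the wild type held the lowest. The log2 fold change of *phot2* over the wild type was 2.11 ± 0.78 (edgeR adjusted p = 0.0698). It was called with the likelihood ratio test (2.30, adjusted p = 0.0026) and with edgeR on the 2 groups alone (2.11, adjusted p = 0.004). The flower and root marker sums of UV-C-treated *phot2* given above did not overlap with those of the wild type. The root sums of UV-C-treated *phot1* and *phot1phot2* were above the wild type as well. The part of these sums in the values of *CYP71A12* and *PAD3* was not tested.

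Non-treated *PAD3* levels were 3.14, 6.89 and 1.65 CPM in *phot1*, 1.73, 1.03 and 7.83 CPM in *phot2* and 4.2, 0.853 and 1.3 CPM in *phot1phot2*, against 0.883, 1.64 and 0.217 CPM in the wild type. The libraries of *phot1* were all above the wild type by a margin of 1.65 against 1.64 CPM, and those of the other mutants overlapped with it. The log2 fold changes of 2.08, 1.92 and 1.19 for the mutants in this order had edgeR adjusted p-values of 0.195, 0.143 and 0.303. No effect of UV-C on *PAD3* was called, with log2 fold changes of -1.04 to 0.64 over the 4 genotypes.

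*CYP71A13* was close to the limit of detection. It had 2 to 26 reads in UV-C libraries and 1 to 52 reads in non-treated ones, with group means of 0.289 to 0.793 CPM after UV-C and 0.104 to 0.533 CPM without. In *phot1phot2* it was at 0.821, 0.55 and 0.564 CPM after UV-C, against 0.236, 0.0267 and 0.0492 CPM without. These groups did not overlap, and 30% of all tested genes were higher without overlap in this comparison. The log2 fold change of 2.59 ± 1.00 rested on 1 to 17 reads a library and was not called (edgeR adjusted p = 0.0319). It was called with the likelihood ratio test (2.95, adjusted p = 0.00067) and with edgeR on the 2 groups alone (2.57, adjusted p = 0.00639). Of the 1494 exon bases of *CYP71A13*, 330 are shared with AT2G30766 on the other strand, which had 97 to 438 reads a library. Reads were counted without regard to strand, so reads from these bases cannot be assigned to either gene.

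**Figure D2:**
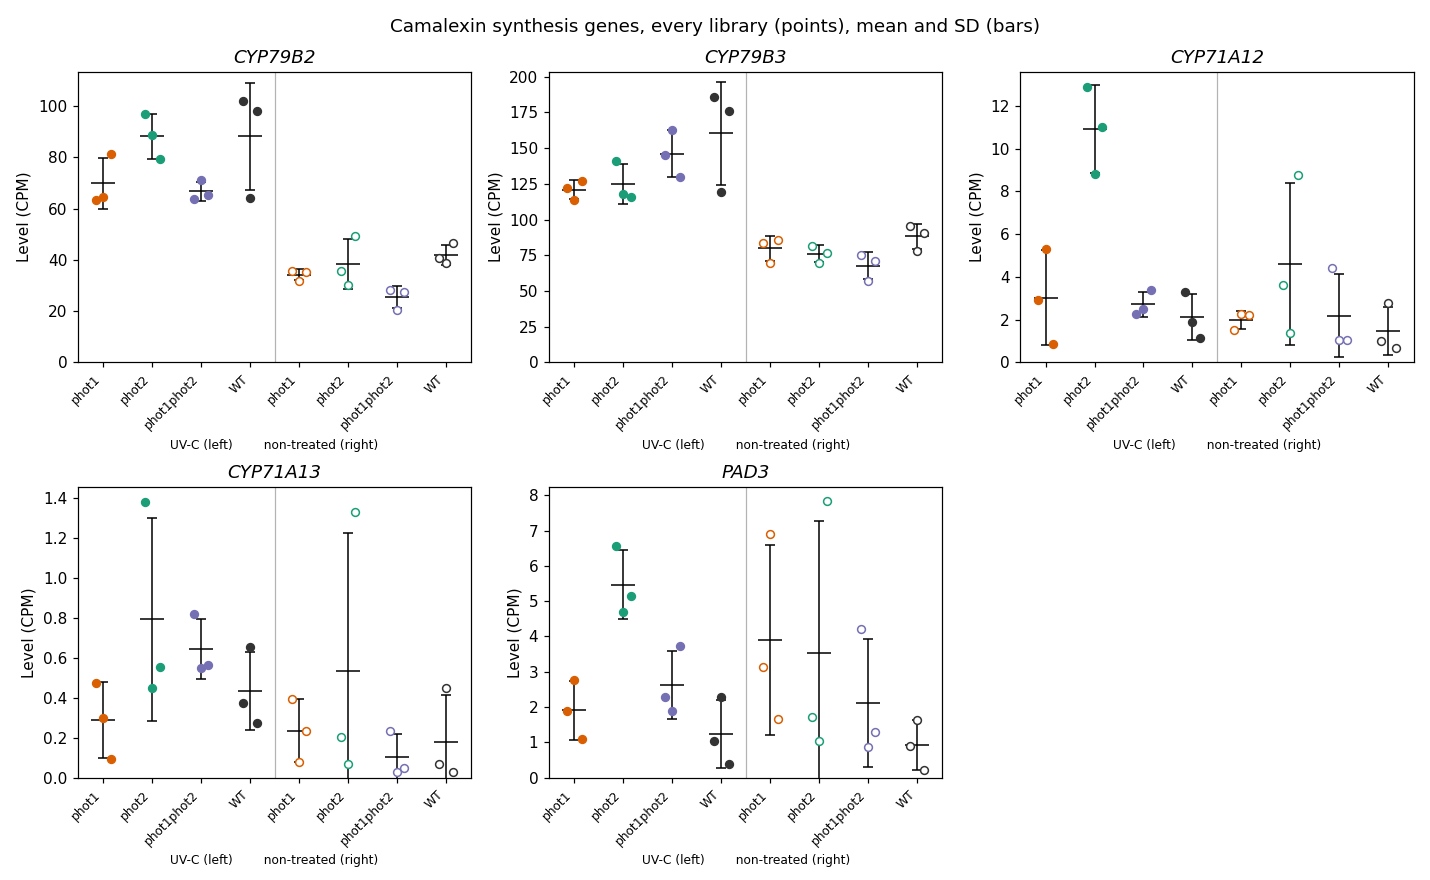
Level of the 5 camalexin synthesis genes in CPM on the vertical axes in each of the 24 libraries, UV-C-treated groups (filled points) left of non-treated groups (open points) and mutants left of the wild type; bars give mean and SD (n = 3). *CYP79B2* and *CYP79B3* are higher after UV-C in every genotype, whereas *CYP71A12* and *PAD3* are highest in the 3 UV-C-treated *phot2* libraries and in single non-treated libraries.

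The spread between replicates set the late genes apart. The highest replicate of a group was 1.40 to 7.58 times the lowest for *PAD3* (median 4.56 over 8 groups), 1.46 to 6.33 times for *CYP71A12* (median 3.54) and 1.49 to 18.8 times for *CYP71A13* (median 5.08). The same ratio was 1.11 to 1.64 for *CYP79B2*, 1.11 to 1.56 for *CYP79B3*, 1.01 to 1.35 for *NIT1* and 1.23 to 3.86 for *NIT2*. *CYP71A12* and *PAD3* had their highest library at the same replicate in 7 of 8 groups and their lowest in 6. *NIT2* and *PAD3*, and likewise *NIT2* and *CYP71A13*, shared the highest library in 6 of 8 groups and the lowest in 6. The median over all 36 pairs of the 9 genes was 4 groups for the highest and 3 for the lowest library. These counts are a description, since the libraries carry all genes at once.

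**Figure D3:**
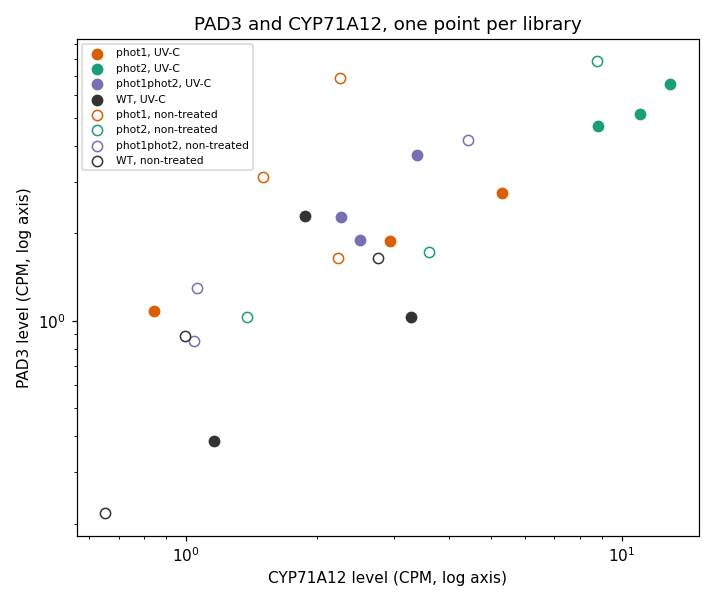
Level of *PAD3* (vertical, CPM) against *CYP71A12* (horizontal, CPM), both on log axes, one point per library, filled after UV-C and open for non-treated plants, coloured by genotype. The 3 UV-C-treated *phot2* libraries and replicate 3 of non-treated *phot2* (8.77 and 7.83 CPM) lie at the upper right, and replicate 3 of the non-treated wild type (0.651 and 0.217 CPM) at the lower left.

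Taking the 9 genes as a set, UV-C was followed by higher levels of the early genes in every genotype. By edgeR's quasi-likelihood test *NIT2* was called higher only in *phot2* (log2 fold change 1.297), a call lost without some single libraries. Its changes in *phot1*, *phot1phot2* and the wild type had the same direction (0.84, 0.91 and 1.12). The likelihood ratio test also called *NIT2* in the wild type (adjusted p = 0.000339). The *NIT2* effect in *phot2* was not told apart from that in the wild type (interaction 0.17 ± 0.52). Of the 9 genes, 1 was called higher in *phot1* (*CYP79B2*), where 6.37% of all tested genes were called higher, and 2 in *phot2* (*NIT2* and *CYP79B2*), where 7.9% of all were. In *phot1phot2* 2 were called higher (*CYP79B2* and *CYP79B3*), against 7.2% of all genes, and in the wild type 1 (*CYP79B2*), against 6.88%. None of the 9 was called lower, where 2.09% of all tested genes were in *phot1*, 2.34% in *phot2*, 3.55% in *phot1phot2* and 2.35% in the wild type. The median log2 fold change of the 9 genes was 0.28, 0.64, 0.33 and 0.53 in *phot1*, *phot2*, *phot1phot2* and the wild type, while that of all tested genes was -0.003 to 0.009.

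**Figure D4:**
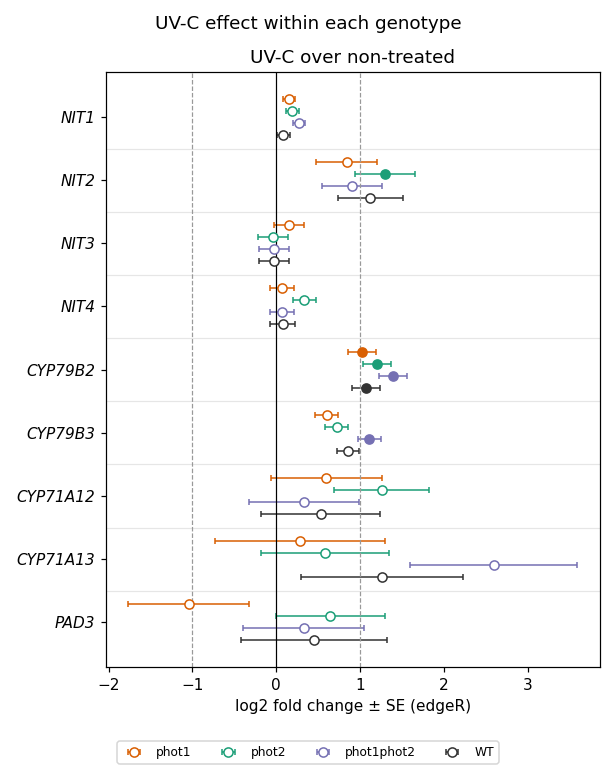
Log2 fold change of UV-C-treated over non-treated plants (horizontal axis, ± SE, edgeR) for the 9 genes (rows) in *phot1*, *phot2*, *phot1phot2* and the wild type (colours, top to bottom); filled points were called and dashed lines mark the fold limit of 1. *CYP79B2* is filled in all 4 genotypes, at 1.03 to 1.39.

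In the comparison of mutants with the wild type, 1 of the 9 genes passed both limits in any single comparison, *NIT2* in UV-C-treated *phot2*. There 2.06% of all tested genes were called, and DESeq2 called 2 of the 9. An unadjusted p under 0.05 was found for 6 of the 9 genes and for 28.9% of all genes. In the remaining comparisons none of the 9 was called by edgeR's quasi-likelihood test. For non-treated *phot1* 0.124% of all genes were called, and 3 of the 9 genes and 11.9% of all had an unadjusted p under 0.05. The values were 0.831%, 5 genes and 18.7% for non-treated *phot2*, and 0.737%, 4 genes and 29.8% for *phot1phot2*. For UV-C-treated *phot1* they were 0.0946%, 3 genes and 16.2%, and for *phot1phot2* 3.2%, 3 genes and 45.8%. The likelihood ratio test called 1 of the 9 in each of these 5 comparisons, and DESeq2 1 in non-treated *phot2* and 0 in the other 4.

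All mutant libraries were above all wild-type libraries for 4 of the 9 genes in non-treated *phot1* (9.76% of all genes), for 3 in *phot2* (12.7%) and for 3 in *phot1phot2* (15.5%), and *NIT1*, *NIT2* and *NIT4* were among them in each. After UV-C the number was 1 in *phot1* (10.9%), 5 in *phot2* (15.2%) and 2 in *phot1phot2* (23.9%). All mutant libraries were below all wild-type libraries for *CYP79B2* in non-treated *phot1* (9.8% of all genes), for none in *phot2* (14.3%) and for *CYP79B2* and *CYP79B3* in *phot1phot2* (17.8%). After UV-C this held for none of the 9 in *phot1* (8.32%), *phot2* (14.3%) or *phot1phot2* (23.7%). All mutants were set against the same wild-type libraries, so these counts are not independent of each other. The median log2 fold change of the 9 genes over the wild type was 0.32, 0.31 and 0.26 in non-treated *phot1*, *phot2* and *phot1phot2*, and 0.23, 0.58 and 0.36 after UV-C.

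**Figure D5:**
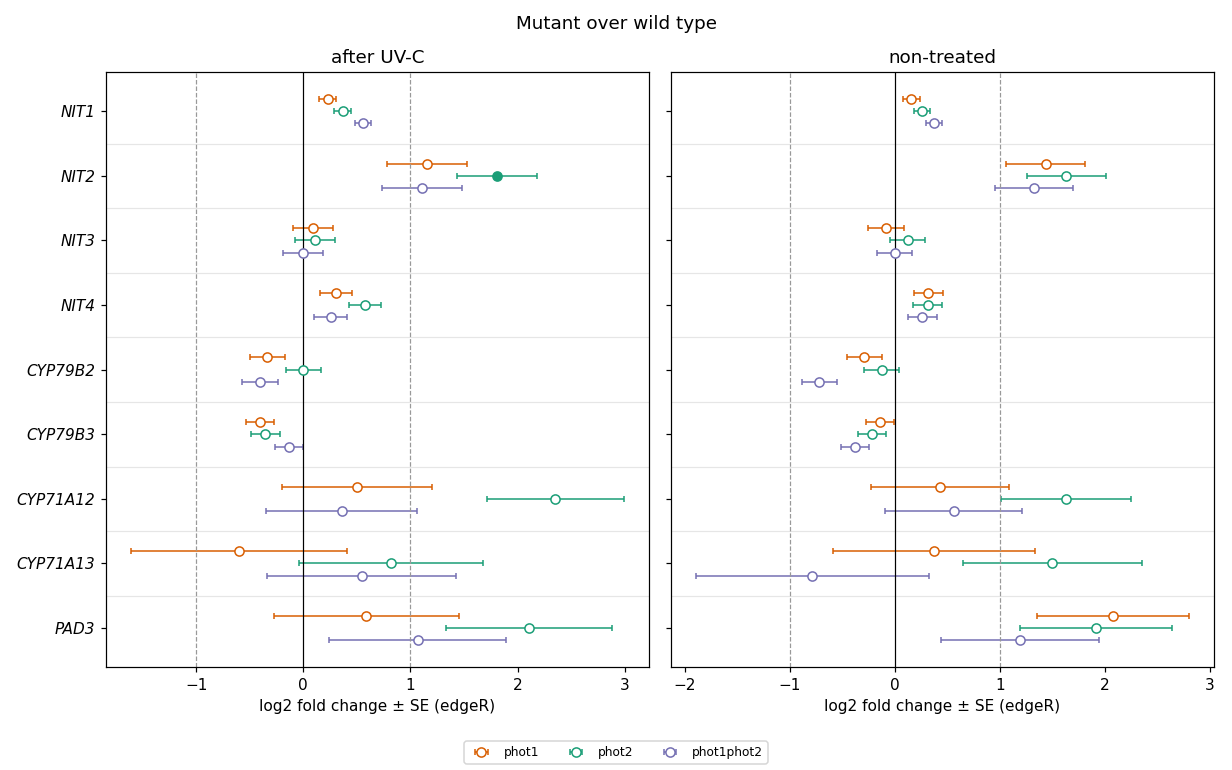
Log2 fold change of each mutant over the wild type (horizontal axes, ± SE, edgeR) for the 9 genes (rows), after UV-C (left) and in non-treated plants (right); the filled point was called and dashed lines mark the fold limit of 1. *NIT2* lies at 1.11 to 1.81 in all 6 comparisons, and *CYP71A12* and *PAD3* have wide errors.

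The interaction of UV-C and genotype asks whether the UV-C effect in a mutant differed from that in the wild type. None of the 9 genes was called for *phot1* (0.00498% of all genes called), *phot2* (0.368%) or *phot1phot2* (1.52%), none had an unadjusted p under 0.05 (7.37%, 14.1% and 24.7% of all genes had), and neither the likelihood ratio test nor DESeq2 called any. For *NIT2* the UV-C effect differed from that of the wild type by -0.28 ± 0.52, 0.17 ± 0.52 and -0.22 ± 0.52, and for *CYP79B2* by -0.04 ± 0.23, 0.13 ± 0.23 and 0.32 ± 0.23, in *phot1*, *phot2* and *phot1phot2* (log2 ± SE). Differences of several times these errors could also be missed with 3 libraries a group. For example, *NIT2* in non-treated *phot1* against the wild type was not called at 1.44 ± 0.38.

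Between mutants, none of the 9 genes was called by edgeR's quasi-likelihood test. In non-treated plants this held for *phot1phot2* against *phot1* (0.0746% of all genes called; 2 of the 9 and 18% of all with an unadjusted p under 0.05), *phot1phot2* against *phot2* (0.239%; 2 of 9 and 17.7%) and *phot2* against *phot1* (0.159%; 0 of 9 and 12.8%). After UV-C it held for *phot1phot2* against *phot1* (1.08%; 1 of 9 and 32.9%), *phot1phot2* against *phot2* (1.32%; 4 of 9 and 36.6%) and *phot2* against *phot1* (0.801%; 1 of 9 and 23.2%). DESeq2 called none in these 6 comparisons, and the likelihood ratio test called 1 in each of the last pair and 0 in the other 4.

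Other genes of indole metabolism were taken from lists drawn up with earlier results of these data known. None of the 12 tested genes of tryptophan synthesis was called in any of the 10 comparisons of UV-C or mutant, nor any of the 3 beta-cyanoalanine synthases, whose product NIT4 uses. Their median log2 fold changes were -0.14 to 0.26 and 0.01 to 0.20. Of all tested genes 8.45% to 10.7% were called in the UV-C comparisons and 0.0946% to 3.2% in those of mutant and wild type. At such shares, no call in lists this short says little.

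After UV-C 6.37% to 7.9% of all tested genes were called higher in the 4 genotypes. Among 13 tested genes for further camalexin enzymes, transporters and regulators, 3 rose after UV-C in *phot1* and 4 each in *phot2*, *phot1phot2* and the wild type. They were *WRKY33*, the transcription factor of camalexin genes (log2 fold change 2.88, 2.23, 2.66 and 3.07 in *phot1*, *phot2*, *phot1phot2* and the wild type), the kinase gene *MPK3*, which acts upstream of it (2.64, 2.16, 2.57 and 2.75), *MYB51*, a regulator of indole glucosinolates (2.20, 1.77, 2.18 and 2.35), and *GSTF6*, whose enzyme can join glutathione to indole-3-acetonitrile (1.24, 1.53 and 1.14 in the last 3 genotypes). *WRKY33* was at 177 to 197 CPM in the group means after UV-C, against 21.7 to 41.9 CPM without, while *PAD3* stayed at 1.23 to 5.47 CPM and 0.913 to 3.89 CPM.

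*GSTF6* was also higher in mutants. It averaged 126 ± 35.2 CPM in UV-C-treated *phot2* and 86.2 ± 6.7 CPM in *phot1phot2*, against 41.1 ± 3.34 CPM in the wild type (SD, n = 3 each), with log2 fold changes of 1.61 (edgeR adjusted p = 0.000961) and 1.07 (0.00907). In non-treated *phot2* it was at 53.2 ± 32.8 CPM, against 18.7 ± 2.69 CPM in the wild type (1.51, edgeR adjusted p = 0.00489). Of the 2 genes of the carbonylnitrile branch, a defence route that starts from the same oxime through CYP71A12, *FOX1* was called higher in UV-C-treated *phot2*, at 4.7 to 11.8 CPM against 0.551 to 1.45 CPM in the wild type (2.87, edgeR adjusted p = 0.00261).

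Among 15 tested genes of indole glucosinolate synthesis and breakdown, 4 rose after UV-C in *phot1*, 6 in *phot2*, 3 in *phot1phot2* and 2 in the wild type, and 1 fell, *IGMT1* in the wild type. Of all tested genes 6.37% to 7.9% were called higher and 2.09% to 3.55% lower in the 4 genotypes. *SOT16*, a sulfotransferase of glucosinolate synthesis, rose in all genotypes (log2 fold change 1.40, 1.51, 1.66 and 1.49 in *phot1*, *phot2*, *phot1phot2* and the wild type). *IGMT1*, which methylates indole glucosinolates, averaged 16 CPM in UV-C-treated and 21 CPM in non-treated *phot2*, against 7.71 and 21.2 CPM in the wild type. Compared with the wild type, 2 of the 15 genes were called higher in UV-C-treated *phot2* (2.06% of all tested genes called). In UV-C-treated (3.2%) and in non-treated *phot1phot2* (0.737%) 1 was called higher and 1 lower. In UV-C-treated *phot1* 1 was lower (0.0946%), and none was called in non-treated *phot1* (0.124%) or *phot2* (0.831%).

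Of 10 tested genes of the indole-3-pyruvate and other routes to auxin, 1 rose and 3 fell after UV-C in *phot1*, *phot2* and the wild type, and 2 fell in *phot1phot2*. The shares of all tested genes were 6.37% to 7.9% called higher and 2.09% to 3.55% called lower. *TAA1*, the tryptophan aminotransferase that starts the pyruvate route, had log2 fold changes of -1.68, -1.18, -1.06 and -2.66 in *phot1*, *phot2*, *phot1phot2* and the wild type. *YUC6*, a flavin monooxygenase of the next step, had -1.65, -1.41, -1.95 and -1.72. *NIT1*, *NIT3* and *NIT4* were not called in these comparisons. Compared with the wild type, 1 of the 10 genes was called higher in non-treated *phot1phot2* (0.737% of all tested genes called). The same held in UV-C-treated *phot2* (2.06%) and *phot1phot2* (3.2%). None was called in non-treated *phot1* (0.124%), non-treated *phot2* (0.831%) or UV-C-treated *phot1* (0.0946%).

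Across the 8 group means of log2(CPM + 1), each centred on its mean, the genes nearest to *NIT2* among 17529 were AT1G26420, AT5G39520 and AT2G39210, at root mean square differences of 0.23 to 0.25 (median of all genes 0.82). For *PAD3* they were *WAK3*, *BGL2* and *GSTU4* (0.11 to 0.14, median 0.58), for *CYP79B2* AT1G67865, *PMSR2* and *SOT17* (0.06 to 0.09, median 0.65), and for *CYP71A13* *PDIL1-3*, AT5G59950 and AT3G11580 (0.06 to 0.08, median 0.28). The *PAD3* and *CYP71A13* patterns rest on group means with the wide spread given above.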

How the data were processed

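RNA-Seq read counts per gene were used as deposited for all 24 libraries. Per the file headers and the study's methods, the authors aligned 76-base paired-end reads of stranded poly-A libraries with STAR 2.5.2b and made the counts with featureCounts (Subread 1.6.2) over Araport11 exons, without strand or pair mode and without reads that map to several places. No batch is given in the labels, and no within-group pair of libraries agreed within sampling noise.

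Protein-coding genes with 5 reads or more in 6 or more libraries were kept. One model with 8 groups was fitted to TMM-scaled counts with the quasi-likelihood method of edgeR 4.0.16 (R 4.3.3, limma 3.58.1), and 19 contrasts were tested. Calls needed an adjusted p under 0.01 and a log2 fold change beyond 1. Levels are CPM, or CPM per kb of the deposited exon length. The fit was tested on simulated data. The alternatives were the likelihood ratio test with robust dispersions, DESeq2 1.42.0, RLE or no scaling factors, no filter, all gene types, glmTreat, only the groups compared, a replicate block and leaving out each library.

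All 9 genes are named whatever their values. Of the pathway lists, the genes named were called in a comparison of UV-C or mutant, at most 4 per list and comparison. The genes and lists were chosen with earlier results of these data known. Sequences and positions were read from the RefSeq TAIR10.1 genome, whose annotation gives 37469 of the 37813 deposited genes the same start and end.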

Additional observations from a re-analysis of the deposited data

Results flagged for a closer look

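The effect of UV-C differed between genotypes for 2 genes of the pathway lists by the test of the interaction. They were 1 of 10 tested genes of the auxin routes (*TAA1*) and 1 of 15 of the indole glucosinolate list (*IGMT1*). Of all tested genes 0.368% were called for this interaction in *phot2* and 1.52% in *phot1phot2*. None of the 9 nitrilase and camalexin genes was called. *TAA1* averaged 8.58 CPM in UV-C-treated and 19.5 CPM in non-treated *phot2*, 7.51 and 15.6 CPM in *phot1phot2*, and 3.92 and 24.8 CPM in the wild type. Its log2 UV-C effect differed from that of the wild type by 1.478 in *phot2* (edgeR adjusted p = 0.00712) and 1.601 in *phot1phot2* (0.00136). *IGMT1* averaged 16 CPM in UV-C-treated and 21 CPM in non-treated *phot2*, 16.6 and 20.2 CPM in *phot1phot2*, and 7.71 and 21.2 CPM in the wild type, and its effect differed by 1.063 in *phot2* (edgeR adjusted p = 0.000945) and 1.163 in *phot1phot2* (7.03e-05). Both genes thus had a UV-C effect nearer to 0 in these mutants. Groups of 3 libraries were not searched for outlying samples.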

How the results depend on the processing

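Alternatives were counted for members with an adjusted p under or near the limit, leaving out libraries of the groups compared only. Of these values 468 kept direction and call, 23 gained a call, 19 lost one and 0 reversed, and 1 moved, the *NIT1* share of the nitrilase level. Gains outside this set, such as *NIT2* in UV-C-treated *phot1* against wild type with the likelihood ratio test, are not in these counts. The number of the 9 genes called for UV-C was 2 with the likelihood ratio test and 2 with only the groups compared in the wild type (1 in the 8-group fit). It was 0 with no TMM factor in the wild type and *phot1* (1 each) and 1 in *phot1phot2* (2), where *CYP79B2* had 0.96 and 0.90 and *CYP79B3* 0.87. Without TMM the median of all genes moved by -0.115 to -0.23 in UV-C effects and by -0.196 in UV-C-treated *phot1phot2* against wild type. With glmTreat, which tests for a fold beyond the limit, 0 were called in the 4 UV-C comparisons and in UV-C-treated *phot2* against wild type.

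Against the wild type, where the 8-group fit called 0, the likelihood ratio test called 1 in non-treated *phot1*, *phot2* and *phot1phot2* and in UV-C-treated *phot1* and *phot1phot2*. Only the groups compared gave 1 in non-treated *phot2* and *phot1phot2* and in UV-C-treated *phot1phot2*, and DESeq2 and no filter 1 each in non-treated *phot2*. For UV-C-treated *phot2* (1 called) the likelihood ratio test and only the groups compared gave 3 and DESeq2 2. For *phot1phot2* against *phot2* and *phot2* against *phot1* after UV-C both the likelihood ratio test and only the groups compared gave 1 (0 called).

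Leaving out 1 library of the groups compared gave 0 to 2 called for UV-C in the wild type, 0 to 1 in *phot1*, 1 to 3 in *phot2* and 2 in *phot1phot2*, and 0 to 1 for UV-C-treated *phot2* against wild type. The other comparisons stayed at 0. Leaving out a library of another group could still add a call. *NIT2* in non-treated *phot2* against wild type was called without replicate 2 of UV-C-treated *phot1* (1.63, edgeR adjusted p = 0.00743). Without replicate 3 of that group, *NIT2* was called against wild type in non-treated (1.32, edgeR adjusted p = 0.00529) and UV-C-treated *phot1phot2* (1.11, 0.00622). *NIT2* was then also called for UV-C in the wild type (1.12, 0.00461). *CYP71A12* was then called in UV-C-treated *phot2* against wild type (2.35, 0.00996). Over all genes the likelihood ratio test called 128 genes in non-treated *phot1* against wild type, 350 in *phot2*, 279 in *phot1phot2* and 63 in UV-C-treated *phot1*, where the 8-group fit called 25, 167, 148 and 19. By CPM without length *NIT1* made up 96.1% of the nitrilase level in non-treated wild type. By the replicate numbers of the labels, no pairing of the libraries was seen (12 pairs, r of deviations -0.18 to 0.21, 2 best with their own number). With a block on these numbers *NIT2* in UV-C-treated *phot2* against wild type was at 1.81 (edgeR adjusted p = 0.00262) and no call of a member changed. The file headers carry other numbers for part of the libraries, so pairing by the header numbers was not tested by the check or the block. The levels of *CYP71A13* rested on 1 to 52 reads a library. The causes of these changes were not tested.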
